A study of Rattus norvegicus with 10 samples.

Results

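Myosin heavy chains are the motor proteins of the thick filament, and the chain that a muscle fibre carries largely sets how fast it contracts. Adult fast fibres of the rat use Myh2 (type IIA), Myh1 (type IIX) and Myh4 (type IIB, the fastest), and many fibres hold more than a single chain. Myh3 (embryonic) and Myh8 (perinatal) are the chains of developing muscle and come back in fibres that regenerate, and Myh7 is the chain of slow fibres.

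The fast and developmental chains were taken by symbol from the table of muscle transcripts: Myh1, Myh2, Myh4, Myh3 and Myh8, 5 of 17221 transcripts with 1 row each, and all 5 passed the filter on low values. The tissue came from below the epidermis, muscle included, of 10 female Wistar rats that had all been immunised with bovine type II collagen in Freund's adjuvant to raise arthritis (RA in the group names). RA_0 was taken before any therapy. AP_1h and AP_34d were taken 1 h and 34 days into acupuncture, which the study calls mechanical stimulation and in which a short needle is inserted and twirled, and PLA_1h and PLA_34d at the same times under placebo, an injection of saline into the peritoneum. Each group held 2 animals, no animal was sampled at more than a single time, and no rat without arthritis is analysed here.

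The needle was applied on both sides of the lower back and of the leg, and the study describes the tissue sampled as dorsal. The titles call it muscle tissue 1 in all 10 libraries. The age of the rats and the muscle within the excised tissue are not given in the sources used here. The libraries held 5371687 to 8899521 counted reads, and 1 CPM (the read count scaled by the authors for library size) stood for 4.19 to 10.1 reads. PLA_34d replicate 1 stood apart, since its r across transcripts with the other libraries averaged 0.906. Its leukocyte markers summed to 1062 CPM, against 115 to 561 CPM in the rest, where AP_1h replicate 1 had the 561. Its sum of muscle markers was the lowest at 73805 CPM, but AP_1h replicate 1 (74304.5) and PLA_1h replicate 1 (78156) were close to it. Markers of skeletal muscle were high in every library (summed Acta1, Ckm, Des and Mb between 73805 and 226366 CPM), while keratinocyte markers summed to at most 6.25 CPM.

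All 5 genes lie in a single cluster of 225.581 kb on the plus strand of chromosome 10 (build rn4), with no other transcript of the table inside it and none overlapping them. Myh3 (NM_012604, 53776858 to 53800677) comes first, followed by Myh2 (NM_001135157, 53864777 to 53891711), Myh1 (NM_001135158, 53894388 to 53917948), Myh4 (NM_019325, 53932090 to 53955029) and Myh8 (NM_001100485, 53972242 to 54002438). The chains are close paralogs, so a read from sequence they share could be given to the wrong chain, and how often this happened was not tested.

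The promoters of the 3 adult fast chains are shown because these genes share sequence there while their levels parted at AP_1h. The 250 bases before each start (RefSeq, build GRCr8, plus strand, matched by symbol for all 5 members) are printed 5′ to 3′, and the capitals mark the longest run shared by the 3, of 20 bases.
Myh2, chr10:52355489-52355738: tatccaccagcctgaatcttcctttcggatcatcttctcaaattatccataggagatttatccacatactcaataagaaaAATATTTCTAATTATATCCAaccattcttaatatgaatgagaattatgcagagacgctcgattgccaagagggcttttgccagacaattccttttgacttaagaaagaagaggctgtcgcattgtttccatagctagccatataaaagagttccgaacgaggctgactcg
Myh1, chr10:52384662-52384911: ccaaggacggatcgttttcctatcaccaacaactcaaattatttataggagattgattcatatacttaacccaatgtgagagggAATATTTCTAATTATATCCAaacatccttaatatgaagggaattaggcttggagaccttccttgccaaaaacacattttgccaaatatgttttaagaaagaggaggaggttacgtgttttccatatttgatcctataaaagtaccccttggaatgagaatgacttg
Myh4, chr10:52421898-52422147: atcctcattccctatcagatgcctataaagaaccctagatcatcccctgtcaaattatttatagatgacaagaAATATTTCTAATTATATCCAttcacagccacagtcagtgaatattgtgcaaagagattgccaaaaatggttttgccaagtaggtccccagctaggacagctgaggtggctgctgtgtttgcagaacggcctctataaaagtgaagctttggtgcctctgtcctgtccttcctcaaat
The run starts 170 bases before the start of Myh2, 166 before that of Myh1 and 177 before that of Myh4, counted on the strand shown. It was absent from the Myh3 and Myh8 windows, and 5 of 33465 promoter windows held it on either strand, the other 2 being starts of the long non-coding RNA LOC102555216 that overlap the Myh4 window on the opposite strand. Between pairs of members, the longest shared run was 20 or 21 bases among Myh2, Myh1 and Myh4 and 7 to 11 bases in every pair with Myh3 or Myh8. The letters TATAAA, searched on both strands, stood in the windows of Myh2, Myh1, Myh4 and Myh3 and in 12.9% of all windows, and a MEF2 motif in those of Myh1 and Myh4 and in 2.96% of all. A match of letters describes the window and says nothing of a factor bound there.

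Levels of Myh1 and Myh2 were lowest in the AP_1h libraries, while those of Myh4 were not set apart there. A limma F test across the 5 groups gave p 0.229 for Myh1, 0.273 for Myh2 and 0.867 for Myh4. The adjusted p was 0.987 for Myh1 and Myh2 and 0.990 for Myh4. The share of all transcripts that were lowest in both AP_1h libraries was not counted. Myh1 stood at 36269 and 25919.6 CPM in RA_0, 6070.1 and 10229.8 in AP_1h, 34886 and 38430.1 in PLA_1h, 32876 and 25877 in AP_34d, and 21230.1 and 29350.1 in PLA_34d. Both AP_1h libraries lay below all the others, whose levels covered a range of 1.81-fold. By group mean, Myh1 was highest in PLA_1h (36658 ± 2506 CPM, SD, n = 2), followed by RA_0, AP_34d and PLA_34d, in that order, each overlapping the next, and then by AP_1h at 8149.9 ± 2941 CPM.

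Myh2, the chain of the most oxidative of the fast fibres, had the same low group. It stood at 11133 and 11502 CPM in RA_0, 2938 and 5131 in AP_1h, 9625 and 9713 in PLA_1h, 11209 and 6194 in AP_34d, and 8670.1 and 11884 in PLA_34d. The AP_1h libraries were again the lowest of the 10, but AP_34d replicate 2 came close to the higher of them. The other group means ran from 8702 ± 3546 CPM in AP_34d to 11318 ± 261 in RA_0 (SD, n = 2), and AP_34d overlapped RA_0, PLA_1h and PLA_34d.

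Myh4, the chain of the fastest fibres, did not share this order. It stood at 32281 and 23345 CPM in RA_0, 34987 and 65741 in AP_1h, 18648 and 58099.6 in PLA_1h, 41736 and 62049 in AP_34d, and 13292 and 42884 in PLA_34d. In PLA_1h and in PLA_34d the replicates stood on opposite sides of both RA_0 libraries. The SD within groups was 0.83 on the log2 scale for Myh4 and 0.34 for Myh1, where the median of all transcripts was 0.39. Its group means, from 27813 ± 6319 CPM in RA_0 to 51892.5 ± 14363 in AP_34d (SD, n = 2), could therefore not be ordered beyond this spread.

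The developmental chains were read in every library. Myh3 was covered by 566 to 2727 reads and Myh8 by 5461 to 13791 reads. Myh3 stood at 259 and 291 CPM in RA_0, 61.2 and 112 in AP_1h, 270.3 and 234 in PLA_1h, 220.3 and 154 in AP_34d, and 160.1 and 188 in PLA_34d. The AP_1h libraries were the lowest of the 10, RA_0 and PLA_1h were the highest and overlapped, and both groups at 34 days lay between and overlapped each other. Myh8 stood at 1827 and 1202 CPM in RA_0, 590.4 and 1050.1 in AP_1h, 1367 and 1811 in PLA_1h, 1582 and 1503 in AP_34d, and 901 and 1466 in PLA_34d. Here the lowest library was again AP_1h replicate 1, but PLA_34d replicate 1 lay between the AP_1h replicates, and the other 3 groups overlapped one another.

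**Figure D1:**
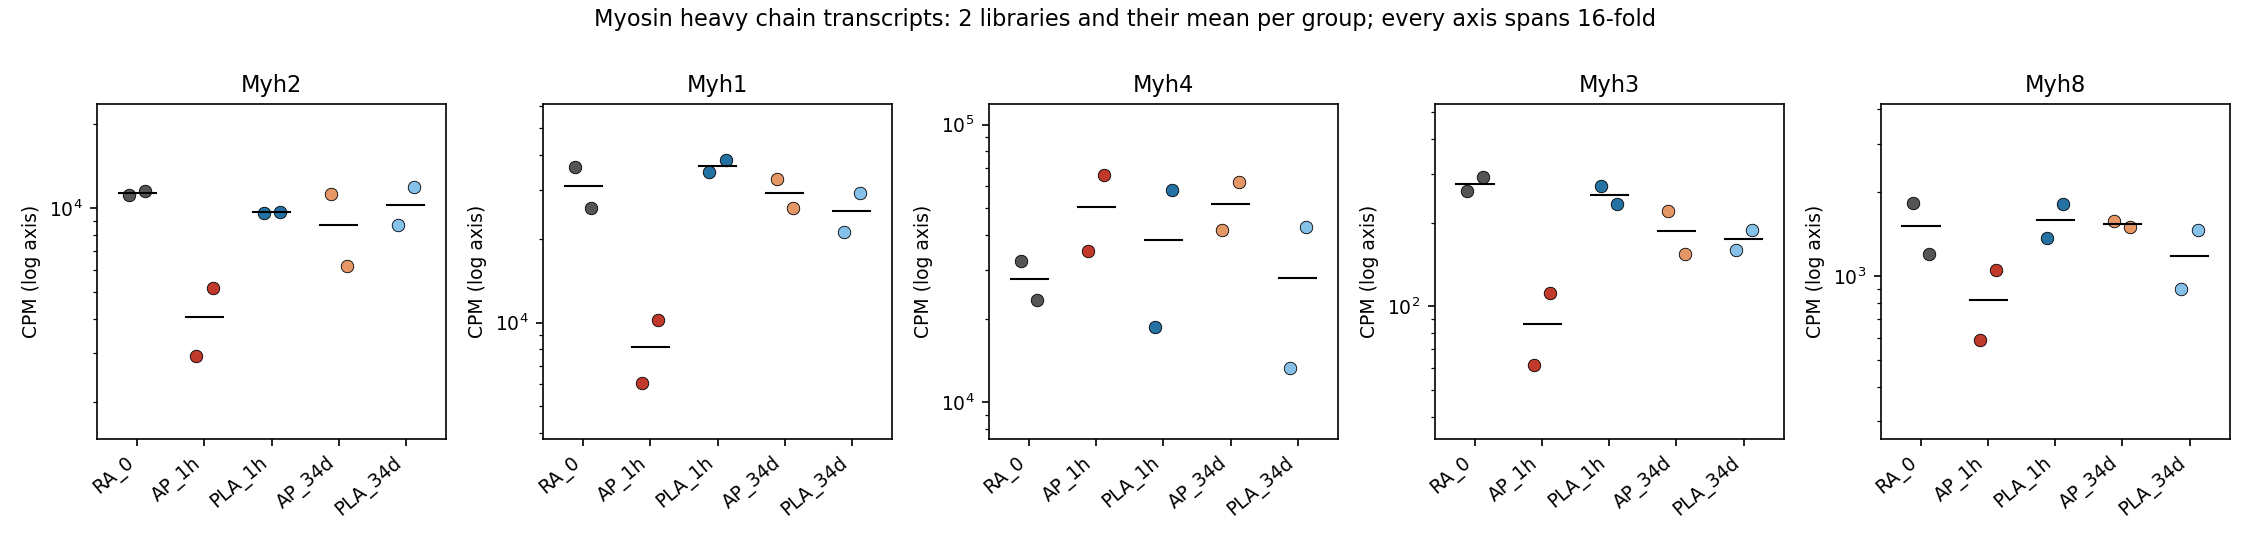
CPM of each chain (log axis, each panel spanning the same fold range) for the 2 libraries of each group, as points, and their mean, as a bar. The AP_1h points of Myh2, Myh1 and Myh3 lie below those of every other group, while the Myh4 points of AP_1h, at 34987 and 65741 CPM, lie within the range of the others or just above it.

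The composition of the chains was given as each chain's share of the summed CPM of the 5. Lengths of the transcripts were not used here, so a share is compared between libraries for the same chain and not between chains. Together the 5 took between 5.27% and 10.1% of all reads of a library. Since the share is a ratio within a library, it does not move with the scaling. It is given without a test, since 2 libraries against 2 cannot give an exact p below 0.333.

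Myh4 made up 78.4% of the sum in AP_1h replicate 1 (95% Wilson interval 78.2% to 78.5%) and 79.9% in replicate 2. In the other 8 libraries its share ran from 28.8% in PLA_1h replicate 1 to 64.8% in AP_34d replicate 2, so the AP_1h libraries did not overlap with any of them. In RA_0 it was 39.5% and 37.5%. The Wilson intervals cover counting error only, and they are far narrower than the distance between replicates.

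Myh1 mirrored this, with 13.6% and 12.4% in AP_1h and between 27.0% (AP_34d replicate 2) and 53.8% (PLA_1h replicate 1) in the other libraries. Myh8 had 1.32% and 1.28% in AP_1h against 1.57% to 2.23% elsewhere, and Myh3 had 0.137% and 0.136% against 0.160% to 0.467%. The Myh2 share was 6.58% and 6.24% in AP_1h, which overlapped with the 6.47% of AP_34d replicate 2, and reached 19.6% in PLA_34d replicate 1. AP_34d replicate 2 thus came nearest to the AP_1h libraries in the shares of Myh4, Myh1, Myh3 and Myh8 and lay between them in that of Myh2.

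**Figure D2:**
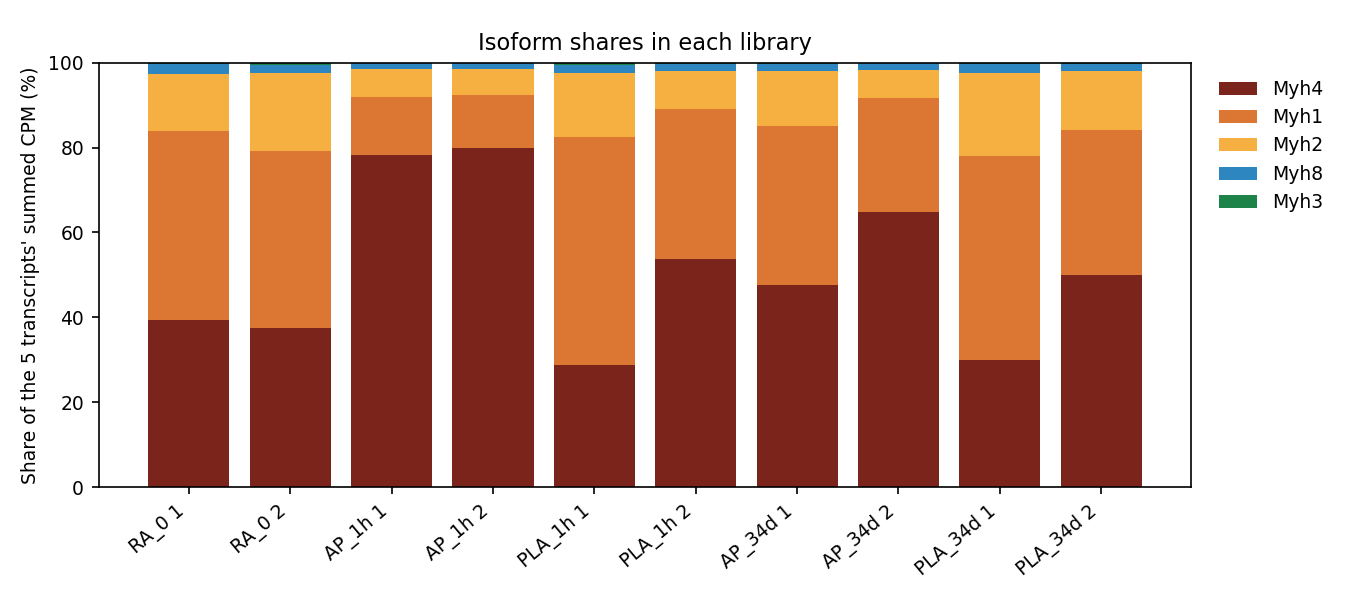
Share of each chain in the summed CPM of the 5 chains (percent, stacked bars to 100%), 1 bar per library. The Myh4 part fills 78.4% and 79.9% of the AP_1h bars and at most 64.8% of any other.

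Ratios of CPM between chains showed which of them moved together. Myh4 stood at 5.76 and 6.43 times Myh1 in AP_1h, and at 0.535 to 2.40 times Myh1 in the other 8 libraries. In the same AP_1h libraries, Myh3 stood at 0.0101 and 0.0109 times Myh1, inside the range of 0.00594 to 0.0112 of the others but above all of them except RA_0 replicate 2. Myh2 lay at 0.484 and 0.502 times Myh1 in AP_1h and at 0.239 to 0.444 elsewhere. Myh8 lay at 0.0973 and 0.103 times Myh1, above the 0.0392 to 0.0581 of the other libraries, and at 0.0169 and 0.0160 times Myh4, below their 0.0242 to 0.0733. So in AP_1h Myh2 and Myh8 were high against Myh1, Myh8 was low against Myh4, and the ratio of Myh3 to Myh1 overlapped that of RA_0.

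Across the 10 libraries, Pearson's r of log2(CPM + 1) was 0.908 for Myh2 with Myh1, 0.935 for Myh2 with Myh3 and 0.928 for Myh1 with Myh3, where the median of all other transcripts with these chains was near 0 (−0.03 to 0.01). These values rest on the AP_1h libraries. Over the other 8, r was 0.372 for Myh2 with Myh1, 0.651 for Myh2 with Myh3 and 0.593 for Myh1 with Myh3. Myh1 and Myh8 kept an r of 0.861 over the 8, beside 0.895 over all 10, and Myh4 with Myh1 went from −0.12 to 0.43. The points share the libraries' scaling, the values describe these libraries, and no test was made.

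**Figure D3:**
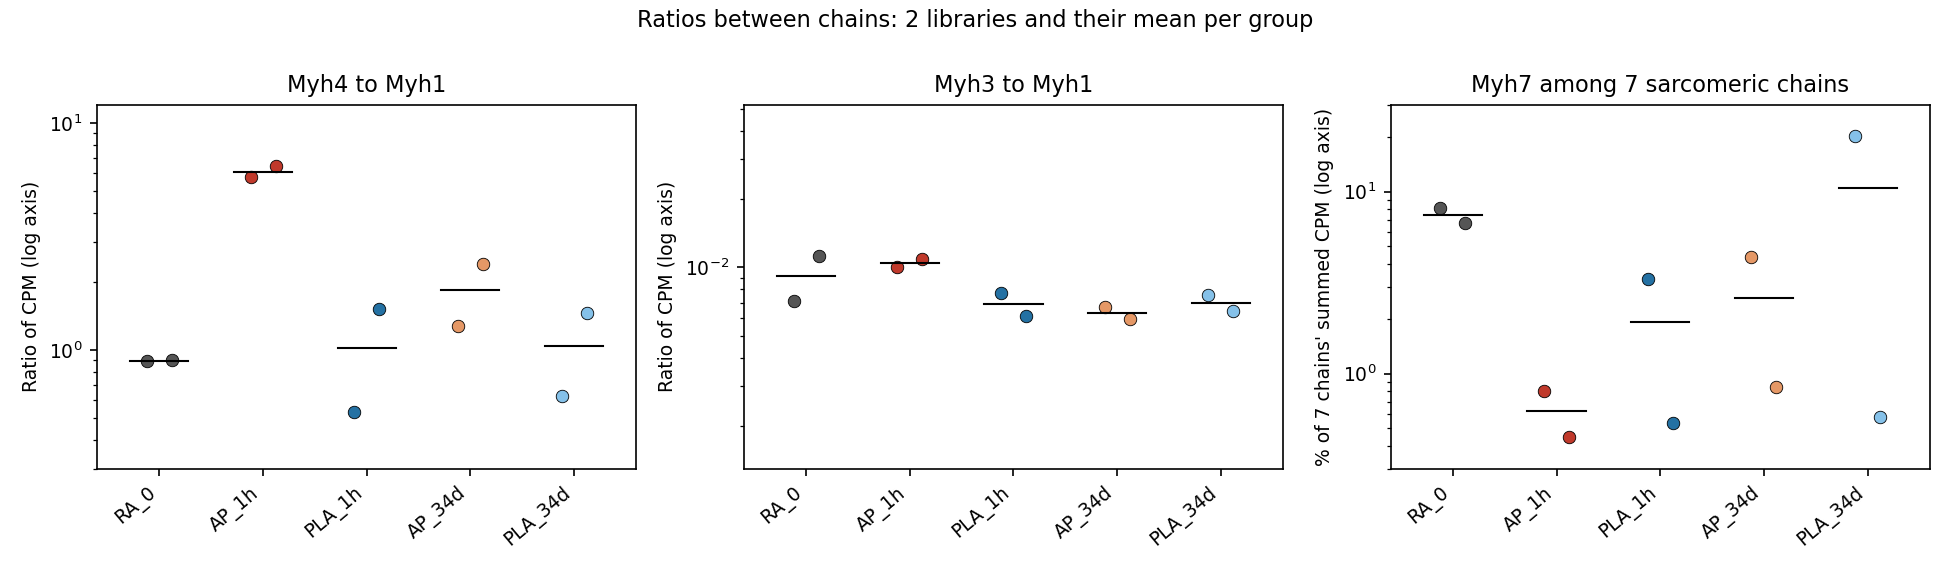
Ratio of Myh4 to Myh1, ratio of Myh3 to Myh1, and Myh7 as a percent of the summed CPM of 7 sarcomeric chains (log axes), for the 2 libraries of each group as points and their mean as a bar. The Myh4 to Myh1 ratio of AP_1h (5.76 and 6.43) stands above every other library, the Myh3 to Myh1 ratio does not, and the Myh7 part is widely spread within PLA_34d (20.3% and 0.577%).

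AP_1h against RA_0 addresses the state of the needled tissue shortly after therapy began. Myh1, Myh2, Myh3 and Myh8 were lower in both AP_1h libraries than in both RA_0 libraries, and Myh4 was higher in both, but limma called none of the 5 at an adjusted p under 0.05. Over all transcripts limma called 0.0292% in this comparison. Libraries that did not overlap, as for all 5 members, were seen at 41.6% of all transcripts, so this count alone does not set the chains apart. The median log2 change was −1.54 over the 5 members and 0.00 over all transcripts tested.

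Myh3, the embryonic chain, had the smallest p, with 86.6 ± 35.9 CPM in AP_1h and 275 ± 22.5 in RA_0 (SD, n = 2), and a log2 change with its SE of −1.72 ± 0.36 (limma p 0.000684, adjusted p 0.191). At an unadjusted p under 0.05 it was alone among the members, against 8.89% of all transcripts. It was also the 1 member that met the threshold of the study (unadjusted p under 0.05, at least 2-fold, mean of at least 1 CPM), which 6.12% of all transcripts met and 3.59% as lower. Myh1 had a log2 change of −1.96 ± 0.97 (limma adjusted p 0.615), and Myh2 of −1.54 ± 0.71 (limma adjusted p 0.575). The SE of Myh1 was wider than that of Myh3 although both had an SD within groups of 0.34 on the log2 scale, because limma moderates each SE towards a trend over transcripts of like mean. Myh8 had a log2 change of −0.91 ± 0.48 (limma adjusted p 0.635). That of Myh4 was 0.80 ± 1.23 (limma adjusted p 0.897), with a 95% interval from −1.94 to 3.55 on the log2 scale.

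The call depended on the test. DESeq2 on the recovered reads called Myh1 (adjusted p 0.000234), Myh3 (adjusted p 0.00418) and Myh2 (adjusted p 0.0311), among 173 transcripts in all, while limma-voom, the method of the study, and edgeR called none of the 5. Under limma-voom and under edgeR, Myh1, Myh2 and Myh3 met the threshold of the study. The signs of all 5 changes were the same under all 26 alternatives, with a log2 change from −2.34 to −1.27 for Myh1 and from −2.15 to −1.03 for Myh3. For both, the end of the range nearest to 0 came from dividing by the level of muscle genes, which moved the median of all transcripts by 0.69 and under which Myh3 no longer met the threshold (p 0.0770).

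Markers of skeletal muscle were spread within groups, with summed Acta1, Ckm, Des and Mb of 226366 and 114332 CPM in RA_0 and of 74304.5 and 112403 in AP_1h. In bulk tissue, fewer fibres of a type and less RNA per fibre cannot be told apart. Leukocyte markers summed to 561 and 177 CPM in AP_1h against 150 and 124 in RA_0. Ptprc, held as several transcripts, was at 0 in every library, and this was not read as its absence. All 5 of the tested leukocyte markers had a positive log2 change (median 1.12, beside 0.00 over all transcripts). Cd68 overlapped, at 24.0 and 3.78 CPM against 3.58 and 5.35. Fibroblast and tendon markers summed to 3237 and 1949 CPM against 1345 and 3583, overlapping, and adipocyte markers to 253 and 220.1 against 157 and 257. Most of the adipocyte sum was Fabp4, at 209 and 208 CPM in AP_1h and 148 and 178 in RA_0. Of 6 tested adipocyte markers, 5 were lower in AP_1h, with a median log2 change of −0.30. Single markers that met the threshold were Lyz2 of macrophages as higher in AP_1h against RA_0 (28.2 and 9.38 against 3.10 and 3.27 CPM, 2.06 on the log2 scale) and, as lower, Tnmd (−3.04) and Fmod (−3.40), genes of tendon. No smooth muscle marker met it. Of 8 tested fibroblast and tendon markers, 4 were lower in AP_1h against RA_0, with a median log2 change of −0.06. Scx, also of tendon, overlapped, at 50.92 and 33.02 CPM in AP_1h against 35.55 and 16.04 in RA_0. The part of these cells in the values of the chains was not tested.

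AP_1h was also compared with PLA_1h, which was sampled at the same time after an injection of saline, with no twirled needle. Again Myh1, Myh2, Myh3 and Myh8 were lower in both AP_1h libraries, where 16.7% of all transcripts were lower in this way and 30.6% did not overlap in either direction, and none was called (0% of all transcripts were). At an unadjusted p under 0.05 there were 2 members and 4.04% of all transcripts. Myh1 (8149.9 ± 2941 against 36658 ± 2506 CPM) differed by −2.22 ± 0.97 on the log2 scale (SE, limma adjusted p 1.00). Myh3 (86.6 ± 35.9 against 252 ± 25.6 CPM) differed by −1.59 ± 0.36 (SE, limma adjusted p 0.505). These 2 members met the threshold of the study, as did 2.62% of all transcripts and 1.65% as lower. Myh3 met it with any library left out. Myh1 did not meet it with any library left out other than PLA_34d replicate 2, nor under a block for the replicate number (limma p 0.0545). Without AP_1h replicate 2, Myh8 met it in place of Myh1, with a log2 change of −1.41.

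In the limma fit the other 3 members did not meet it, with log2 changes of −1.32 ± 0.71 for Myh2, −0.998 ± 0.48 for Myh8 and 0.54 ± 1.23 for Myh4. The sign for Myh4 rested on PLA_1h replicate 1, since without it the log2 change was −0.28. DESeq2 called Myh1 (adjusted p 7.64e-05) and Myh3 (adjusted p 0.0313). Under limma-voom, edgeR and DESeq2, Myh2 met the threshold together with Myh1 and Myh3 (unadjusted p of Myh2 0.0290, 0.0469 and 0.00328). AP_1h is part of both comparisons, so they are not independent of each other. Beside these values, summed muscle markers were 78156 and 193681 CPM in PLA_1h, leukocyte markers 194 and 174, fibroblast and tendon markers 1439 and 1711, and adipocyte markers 235 and 209.2. Single markers that met the threshold in AP_1h against PLA_1h were Col3a1, a fibroblast collagen, as higher (1.42 on the log2 scale) and, as lower, Fmod (−3.19), Tnmd (−1.76) and Adipoq of adipocytes (−2.23). Fmod and Tnmd were the 2 of 8 tested fibroblast and tendon markers that were lower, and the median log2 change was 0.46. Of 6 tested adipocyte markers, 5 were lower. The part of these markers in the values of the chains was not tested.

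**Figure D4:**
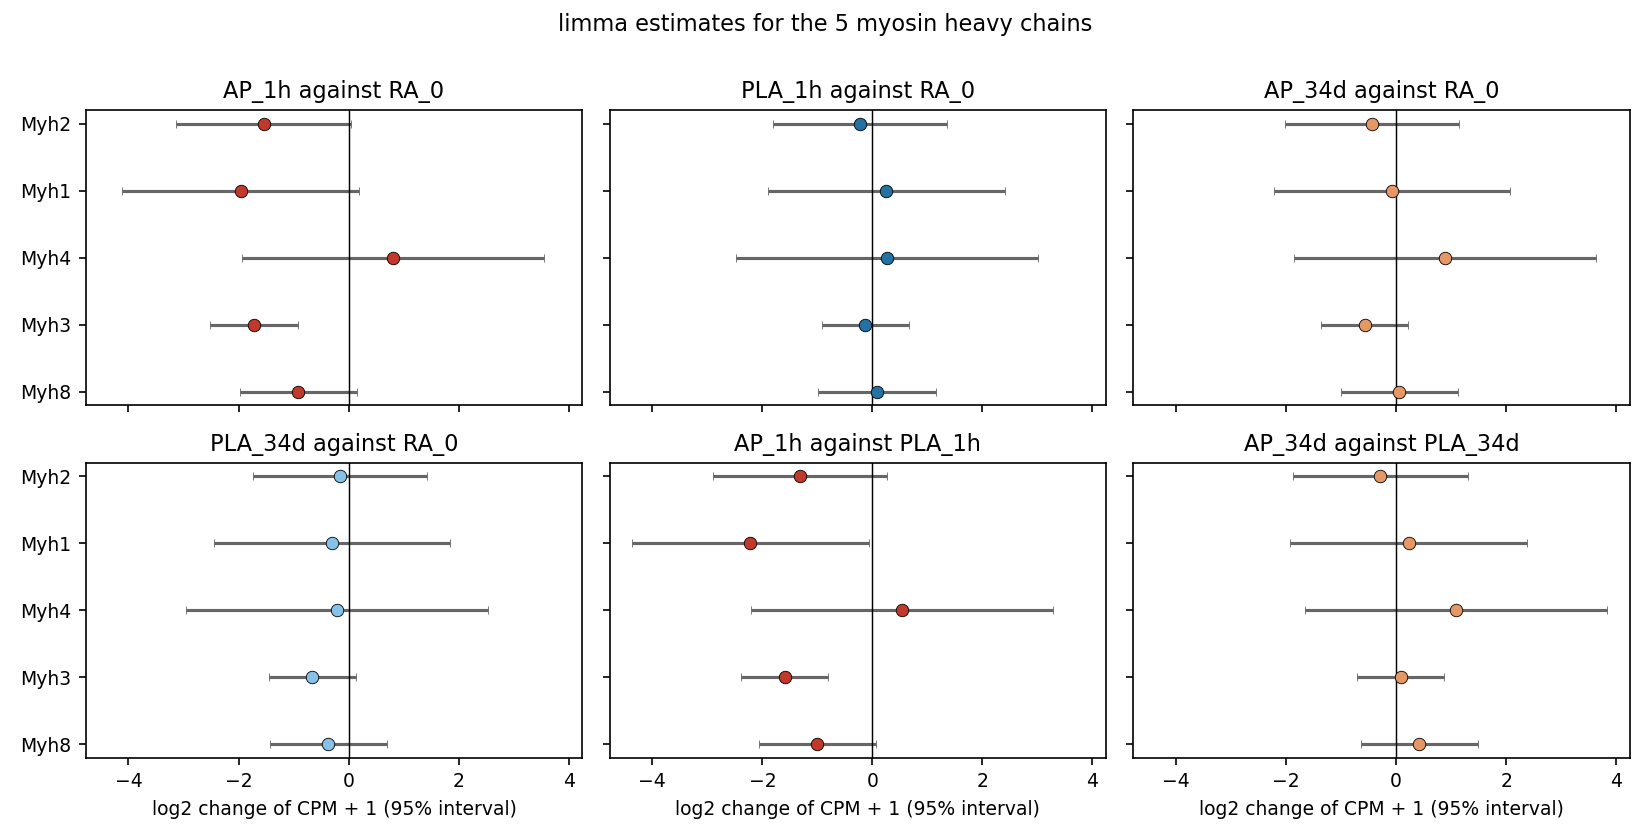
log2 change of CPM + 1 (points) with its 95% interval from limma (lines) for the 5 chains in 6 comparisons, on 1 common axis. The intervals of Myh3 lie below 0 in both comparisons of AP_1h and include 0 in the other 4, and those of Myh4 include 0 in all 6.

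In the comparisons without AP_1h, the chains could not be told from their replicate spread. Over PLA_1h against RA_0, AP_34d against RA_0, PLA_34d against RA_0 and AP_34d against PLA_34d, the 20 log2 changes lay between −0.66 and 1.09, the smallest unadjusted p was 0.0944, and limma, limma-voom, edgeR and DESeq2 called 0 members. limma called 0% of all transcripts in each of the 4. With PLA_34d replicate 2 left out, which leaves replicate 1 alone in its group, it called 161 transcripts in PLA_34d against RA_0 and 174 in AP_34d against PLA_34d, and still 0 members. Over all 10 libraries, at an unadjusted p under 0.05 there were 2.59%, 4.77%, 3.2% and 5.47% in this order and 0 members. The threshold of the study was met by 1.67%, 2.82%, 2.42% and 3.57% of all transcripts and by 0 members. Libraries that did not overlap were seen for 1, 2, 1 and 1 members, and for 29.4%, 32.3%, 31% and 31% of all transcripts. Of the 20, 14 changed sign under at least 1 alternative. Myh3 was lower than in RA_0 in both groups at 34 days, with log2 changes of −0.57 ± 0.36 in AP_34d and −0.66 ± 0.36 in PLA_34d, in libraries below both of RA_0 (as for 15.9% and 14.2% of all transcripts), and neither passed. Myh4 in AP_34d, at 41736 and 62049 CPM, stood above both RA_0 libraries and overlapped PLA_34d, and without PLA_34d replicate 1 its log2 change against PLA_34d went from 1.09 to 0.25. Adipocyte markers moved beside these values, with Adipoq (2.36) and Lep (1.69) meeting the threshold as higher in PLA_34d against RA_0. Lep met it as lower in AP_34d against PLA_34d (−1.68), and Scx of tendon as lower in PLA_34d against RA_0 (−1.78), all on the log2 scale. Adipoq stood at 73.03 and 20.04 CPM in PLA_34d and at 1.67 and 21.1 in RA_0. Lep stood at 10.3 and 1.85 CPM in PLA_34d, 0 and 2.08 in RA_0, and 0.977 and 0.598 in AP_34d. Both genes thus overlapped between PLA_34d and RA_0, and the higher PLA_34d value of each came from replicate 1, the library that stood apart. The part of these markers was not tested.

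Taking both times together, AP against PLA gave a log2 change of −0.75 ± 0.25 for Myh3 (limma p 0.0135, adjusted p 0.727) and none of the 5 was called, where 0% of all transcripts were called and 5.72% had an unadjusted p under 0.05. An F test of any difference among the 5 groups gave Myh3 a p of 0.00516 (limma adjusted p 0.666), also without a call, and 4.98% of all transcripts had an unadjusted p under 0.05 there. None of the other 4 members reached that p in either test. The difference between the AP effects at 34 days and at 1 h was 1.68 ± 0.50 for Myh3 on the log2 scale (SE, limma p 0.00761, adjusted p 1.00).

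Slow and cardiac chains were set beside the fast ones because a muscle sample holds both kinds of fibre. Myh7, the slow chain, stood at 7398 and 4565 CPM in RA_0, 361 and 372 in AP_1h, 2235 and 579 in PLA_1h, 4064 and 813 in AP_34d, and 11934 and 499 in PLA_34d. It was lowest in AP_1h and varied 23.9-fold among the other libraries, with both the highest and the lowest of these in PLA_34d. Its log2 change in AP_1h against RA_0 was −3.98 ± 1.29 (SE, limma adjusted p 0.384) and met the threshold of the study, and against PLA_1h it did not. Myh6, the cardiac alpha chain, stood at 1952 and 1113 CPM in RA_0, 98.2 and 96.4 in AP_1h, 526 and 153 in PLA_1h, 1082 and 179.6 in AP_34d, and 2573 and 121 in PLA_34d. Its ratio to Myh7 hardly varied, with Myh7 at 3.68 to 4.64 times Myh6 in all 10 libraries. These are near-identical and adjacent genes, so how much of the Myh6 level came from reads of Myh7 is uncertain. In percent of all 7 chains, Myh7 took 8.12% and 6.72% in RA_0, 0.801% and 0.450% in AP_1h, and 20.3% in PLA_34d replicate 1. Adding both to the sum left Myh4 at 77.6% and 79.5% in AP_1h.

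The rest of the thick filament was described from lists of genes, of which limma called none in any comparison. Several of them lack members in the table, so a count covers the genes tested. In AP_1h against RA_0 all 3 of the other striated chains in the table (Myh7, Myh6 and Myh7b) and 2 of the 3 tested slow light chains (Myl2 and Myl3) met the threshold of the study as lower, as 3.59% of all transcripts did. Myl3, the slow ventricular light chain, went from 5177 and 1756 CPM in RA_0 to 231 and 307 in AP_1h, a difference of −3.50 ± 0.89 on the log2 scale (SE, limma adjusted p 0.241). It also met the threshold as lower in PLA_1h against RA_0, at 409 and 627 CPM, as did Myl2, where 1.67% of all transcripts met it in either direction. By contrast none of the 4 tested transcripts of the fast light chain list met it in any comparison, and Mylpf, the fast regulatory light chain, stood at 18902 and 11118 CPM in RA_0 and at 7550.4 and 19400.5 in AP_1h.

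Among 10 tested genes of thick filament assembly, 4 met the threshold in AP_1h against RA_0, 3 as higher and 1 as lower, beside 2.53% and 3.59% of all transcripts. Mybpc1, the slow form of myosin-binding protein C, stood at 6682 and 9390.2 CPM in RA_0 and at 1228 and 1339 in AP_1h, −2.63 ± 0.61 on the log2 scale (SE, limma adjusted p 0.233), and at 7493 to 11126 CPM in the other groups. It met the threshold against PLA_1h as well. Its fast counterpart Mybpc2 stood at 3958 and 6726 CPM in AP_1h, within the range of the other libraries (2867 to 6782). Mybph, a related thick filament protein, was higher in AP_1h at 1936 and 3633 CPM against 259.8 and 645 in RA_0. Trim63, the ubiquitin ligase MuRF1 that targets thick filament proteins, was higher in AP_1h (2666 and 680.4 CPM against 306 and 276) and in AP_34d (1375 and 2296 CPM), and it met the threshold in AP_34d against PLA_34d as well. Hsp90aa1, a chaperone of myosin folding, met it as higher in AP_1h (73.8 and 113 CPM) and in AP_34d (60.4 and 157) against RA_0 (38.6 and 46.3). PLA_1h also stood above both RA_0 libraries for Hsp90aa1 (107 and 57.9 CPM) and for Trim63 (468 and 646), without meeting the threshold. Of the 4 smooth muscle and non-muscle heavy chains, Myh10 met it as lower in AP_1h against RA_0 (−1.78) and PLA_1h (−1.55), and Myh14 as higher in AP_34d against RA_0 (1.26) and PLA_34d (1.17), all on the log2 scale. Myh14 stood at 102 and 262 CPM in AP_34d and at 61.6 to 84.1 CPM in those 2 groups.

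Regulators of fibre type had a median log2 change of −0.14 in AP_1h against RA_0. Of 12 tested, 1 met the threshold in AP_1h against RA_0, a share near the 6.12% of all transcripts. It was Vgll2, a cofactor expressed in skeletal muscle, at 54.5 and 43.0 CPM against 162 and 102. In PLA_1h against RA_0, where 1.67% of all transcripts met it, 1 did, Tbx15, a factor of glycolytic fibres, at 222 and 227 CPM against 89.2 and 127.

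Genes of regeneration and denervation were of interest beside Myh3 and Myh8, which fibres that regenerate express. Of 12 tested, 5 met the threshold in AP_1h against RA_0 and 5 in PLA_1h against RA_0, all as higher, where 2.53% and 0.994% of all transcripts met it as higher. Myh3 and Myh8 were lower in AP_1h, as given above, and overlapped RA_0 in PLA_1h. Myf6, a myogenic factor of mature fibres, stood at 821 and 915 CPM in AP_1h and at 179 and 144 in RA_0, 2.42 ± 0.44 higher on the log2 scale (SE, limma adjusted p 0.103). Myog, the factor of differentiation, stood at 483 and 179 CPM against 30.1 and 45.9, and Chrna1, a subunit of the acetylcholine receptor, differed by 2.08 on the log2 scale. Myf6 also stood above both RA_0 libraries in PLA_1h (407 and 249 CPM) and AP_34d (390 and 237). So did Myog, at 179 and 54.1 CPM in PLA_1h and 46.1 and 231 in AP_34d. In PLA_34d both overlapped RA_0. Of the 12, 8 were lower in AP_1h than in PLA_1h, with a median log2 change of −0.25. In PLA_1h, Ncam1, an adhesion molecule of denervated fibres, differed by 2.07 and Chrna1 by 2.01. Chrna1 stood at 192 and 37.0 CPM in PLA_1h and at 18.4 and 22.4 in RA_0, so most of its difference came from replicate 1. Chrng, the fetal subunit of the acetylcholine receptor, and Tmem8c, the fusion protein myomaker, reached 24.2 and 20.02 CPM in PLA_1h replicate 1 but at most 2.98 in replicate 2. In that replicate 1 Myh3 stood at 270.3 CPM, beside 234 in replicate 2 and a mean of 275 in RA_0. At 34 days Runx1, a factor of denervated muscle, was the 1 gene of the list that met the threshold, as higher in AP_34d against RA_0 (1.98) and PLA_34d (1.82), but it stood at 6.05 and 53.5 CPM in AP_34d and at 3.27 to 4.82 in those groups, so that replicate 2 carried the difference.

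The transcripts whose pattern was most like that of each chain were taken from 6810 others with a mean of at least 10 CPM, by Pearson's r over the 10 libraries, as a description. For Myh4 these were Mybpc2 (r 0.952), Actn3, the alpha-actinin of fast fibres (0.920), and Pgm1, phosphoglucomutase (0.904), and over the 8 libraries without AP_1h they kept 0.967, 0.914 and 0.920. For Myh1 they were Tom1l2 (0.949), RGD1562618 (0.946) and Myadml2 (0.944), of which Tom1l2 had 0.238 over the 8 libraries and so rested on AP_1h. For Myh2 they were Lgalsl (0.976), Ppip5k1 (0.956) and Nnt, the mitochondrial transhydrogenase (0.953), and Lgalsl was also nearest to Myh3 (0.935), before Nlrx1 and Apbb1. For Myh8 they included Ndrg2 (0.928) and Pkp2 (0.927), with 0.935 and 0.796 over the 8 libraries.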

How the data were processed

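RNA of the excised tissue was sequenced with a kit that does not mark strand. The authors trimmed adapters with cutadapt 1.2.1, aligned reads to build rn4 with Bowtie2 2.1.0 and counted them for each transcript with HTSeq 0.5.4p3 (submitters' processing notes and methods). The authors deposited a signal for every transcript, CPM with TMM factors from edgeR 3.4.2. Each deposited value equalled a whole number of reads after rescaling (100%, to 0.01 reads), so the reads were recovered for count tests and for Wilson intervals. Start positions in the table count from 0 (99.6% of 1204 olfactory receptor rows had an end minus start divisible by 3) and are given from 1.

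A transcript was kept if 1 group had 1 CPM or more in both of its libraries (10259, 59.6%). limma 3.58.1 in R 4.3.3 was fitted on log2(CPM + 1) with a mean per group and a mean trend over all 10 libraries, which share 1 estimate of the spread, and p-values were adjusted by Benjamini-Hochberg over all transcripts kept. Fold changes are on this scale, and p-values rest on the spread between the 2 animals of a group, moderated over transcripts of like mean. The threshold of the study was read from the same fit. Alternatives were limma-voom, edgeR 4.0.16 and DESeq2 1.42.0 on the recovered reads, other pseudocounts, filters and scalings, a replicate block and each library left out. In simulated counts for AP_1h against RA_0 over 10259 transcripts, limma recovered 52.5% of 200 changed 4-fold, with 8 false calls, and 98% of 200 changed 16-fold, with 14. The changed transcripts had a mean of at least 5 CPM, and each transcript was drawn independently around a mean common to all groups. Shifts of tissue content shared by many transcripts were left out, so these rates need not hold for the chains.

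Members, lists and the naming rule were chosen with earlier results of these data known. Named were all members, Myh6 and Myh7, list genes that met the threshold (up to 3 for each list and comparison, by p) or had the 2 highest means of their list, and the 3 transcripts most like each member, except for a few that are not reported here. Correlations over the 8 libraries without AP_1h were added after seeing the data.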

Additional observations from a re-analysis of the deposited data

Results flagged for a closer look

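Myh8, the perinatal chain, stood on opposite sides of placebo at the 2 times. Both AP_1h libraries (590.4 and 1050.1 CPM) lay below both PLA_1h libraries (1367 and 1811 CPM), and both AP_34d libraries (1582 and 1503 CPM) lay above both PLA_34d libraries (901 and 1466 CPM). Libraries that did not overlap, in either direction, were seen at 30.6% of all transcripts in AP_1h against PLA_1h and at 31% in AP_34d against PLA_34d. The difference between the 2 effects was 1.42 ± 0.68 on the log2 scale (SE, limma interaction p 0.0620, adjusted p 1.00), so it did not pass the test. The lower of the PLA_34d values came from replicate 1, the library that stood apart, with leukocyte markers at 1062 CPM against 115 in replicate 2 (Cd79b, of B cells, at 72.0 against 0.853 CPM) and muscle markers at 73805 against 151133 CPM. The part of these markers was not tested. Without it the log2 change of AP_34d against PLA_34d went from 0.42 to 0.07. Groups of 2 libraries are too small for a test of single outlying libraries.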

How the results depend on the processing

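The 5 members' counts were recomputed under 16 alternatives and with each of 10 libraries left out. Members called differed from 0 with DESeq2 alone, at 3 for AP_1h against RA_0, 2 for AP_1h against PLA_1h and 2 across the 5 groups. Over all transcripts DESeq2 called 173, 11, 33, 38, 42 and 90 in the 6 pairs in the order AP_1h, PLA_1h, AP_34d and PLA_34d against RA_0, AP_1h against PLA_1h and AP_34d against PLA_34d, where limma called 3 in the first and 0 in the others, and limma-voom and edgeR called 0 in each. Members meeting the threshold of the study in AP_1h against RA_0 went from 1 to 3 with a pseudocount of 4, a mean of at least 5 CPM, plain CPM without TMM, quantile normalisation, no mean trend, limma-voom, edgeR and DESeq2, to 2 (Myh1 and Myh4) per skeletal muscle content, and to between 1 and 2 with a library left out. In AP_34d against RA_0 they went from 0 to 1 (Myh4) per skeletal muscle content. In AP_1h against PLA_1h they went from 2 to 1 with no filter, DESeq2 size factors, the 20 most abundant transcripts left out of the scaling and the compared groups alone, to 3 with a mean of at least 5 CPM, plain CPM, quantile normalisation, no mean trend, limma-voom, edgeR and DESeq2, and to between 1 and 2 with a library left out. The log2 change of Myh4 in AP_1h against PLA_1h ran from −0.28, without PLA_1h replicate 1, to 1.36, without PLA_1h replicate 2. The cause of these differences was not tested. Scaling per muscle content moved the median of all transcripts by 0.69 in AP_1h against RA_0 and by 0.42 in AP_1h against PLA_1h, and plain CPM by 0.15 and 0.10.

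The groups share replicate numbers that the labels do not tie to a cage, day or litter. Deviations of replicate 1 from the group means correlated between −0.46 and 0.45 over 10 pairs of groups, with 4 above 0.1, so the numbers were not taken as pairs. With the replicate block the members meeting the threshold in AP_1h against PLA_1h went from 2 to 1, and it changed no other count of members.

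Shares per coding length were not run, since lengths of the transcripts were not used here. The medians of the shares moved by less than the spread between replicates with Myh6 and Myh7 in the sum or a library left out. Every member had at least 566 reads in each library, and the counting intervals of the Myh4 share were narrower than the distance between replicates. The 2 animals per group limit the comparisons. Without PLA_34d replicate 2, transcripts meeting the threshold went from 248 to 1036 in PLA_34d against RA_0 and from 366 to 1033 in AP_34d against PLA_34d, and 0 members met it there.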
